A study of Mus musculus with 5 samples.

Results

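The Hoxc cluster of the mouse was described in 4 lists of called regions, made from Hoxa9, C/EBPα, H3K4me1 and H3K27me3 chromatin precipitates of 1 population of transduced cells. The members were all rows of the lists with at least 1 bp inside a window of 130 kb on chromosome 15, from 102740000 to 102870000 in build mm9. The window was set by position, with Hoxc13 at its low end and Hoxc4 at its high end, and not by any measured value. Earlier results of these data were known when it was chosen. It held 10 of the 166982 rows: 9 H3K4me1 regions of 100189, 1 Hoxa9 peak of 6578, 0 C/EBPα peaks of 26446 and 0 H3K27me3 regions of 33769. A flank of 200 kb on each side was taken for contrast.

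The cells were bone marrow progenitors of C57B6 mice, depleted of lineage-positive cells and transduced with the retroviral vectors MIGR1-HA-Hoxa9 and MIGR1-Flag-Meis1, then kept in IL3. All 5 libraries, the input included, came from cells carrying both transgenes, so no comparison with cells without them was possible. Hoxa9 was precipitated through its HA tag, which marks the transduced protein and not the product of the endogenous gene. Each precipitation was 1 library without a replicate, so the differences reported here have no replicate error and no test was made. The input library was not analysed here.

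Hox genes encode homeodomain transcription factors that give cells their position along the body axis, and they stand in 4 clusters that arose by duplication. Where a cluster is silent, Polycomb complexes usually cover it with a broad stretch of H3K27me3. H3K4me1 marks enhancers and the borders of promoters, and at silent developmental genes marks of histone H3 lysine 4 are often found together with H3K27me3. In blood progenitors the Hoxa and Hoxb clusters are the better known regulators, and Hoxa9 with its cofactor Meis1 is an oncogene of myeloid leukaemia.

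All 9 members were found in the RefSeq gene table, which is of build GRCm38 and was used for names and order only. From the low to the high end the order was Hoxc13, Hoxc12, Hoxc11, Hoxc10, Hoxc9, Hoxc8, Hoxc6, Hoxc5 and Hoxc4. Hoxc13 is known for its part in hair and nail growth, Hoxc10 and Hoxc11 for patterning at the level of the hindlimb, and Hoxc8 and Hoxc9 for patterning of the thorax. Hoxc9 belongs to the same paralogue group as Hoxa9, the precipitated factor. Hotair, a long non-coding RNA gene, lies between Hoxc12 and Hoxc11. The nearest protein-coding neighbours were Calcoco1 beyond Hoxc13 and Smug1, followed by Cbx5, beyond Hoxc4. The lists carry mm9 positions and no gene names, so regions are placed by distance from the window's ends and were not assigned to single genes.

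The cluster also holds 2 microRNA genes, Mir196a-2 and Mir615. In the order of gene starts, Mir196a-2 came between Hoxc10 and Hoxc9 and Mir615 between Hoxc5 and Hoxc4. The places of microRNA genes given here and below follow gene starts only. They do not show whether a microRNA gene lies inside a neighbouring gene. The microRNA products are shown because the miR-196 family ties the Hoxc cluster to the Hoxa and Hoxb clusters, with which it is compared here. Mature sequences from RefSeq (GRCm38.p6) are written 5′ to 3′, with the seed (bases 2 to 8) in capitals.

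miR-196a-5p, from Mir196a-2 in Hoxc and from Mir196a-1 between Hoxb13 and Hoxb9: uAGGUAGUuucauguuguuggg

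miR-196b-5p, from Mir196b between Hoxa9 and Hoxa10: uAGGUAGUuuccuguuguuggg

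miR-615-3p, from Mir615 in Hoxc: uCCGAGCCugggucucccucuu

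The Hoxc and Hoxb copies give the same mature miR-196a-5p. The Hoxa product differs from it by the substitution A12C, counted from the 5′ end with the base of miR-196a-5p first, which lies outside the seed. Among 1679 mature names in the table these 2 alone had this seed. The seed of miR-615-3p was found in 1 name.

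No H3K27me3 region of the list as used here touched the Hoxc window. The last region before it ended at 102733004, 7.0 kb short of the Hoxc13 end, and the next began at 102903865, which is 33.9 kb beyond the Hoxc4 end. The stretch between them, 170.86 kb, held 9 H3K4me1 regions, 1 Hoxa9 peak and 0 C/EBPα peaks. Windows of 130 kb laid end to end over the 2574.38 Mb that the lists span gave the background: 63.2% of 19795 windows also held no H3K27me3 region. A window without a called region was therefore common.

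**Figure D1:**
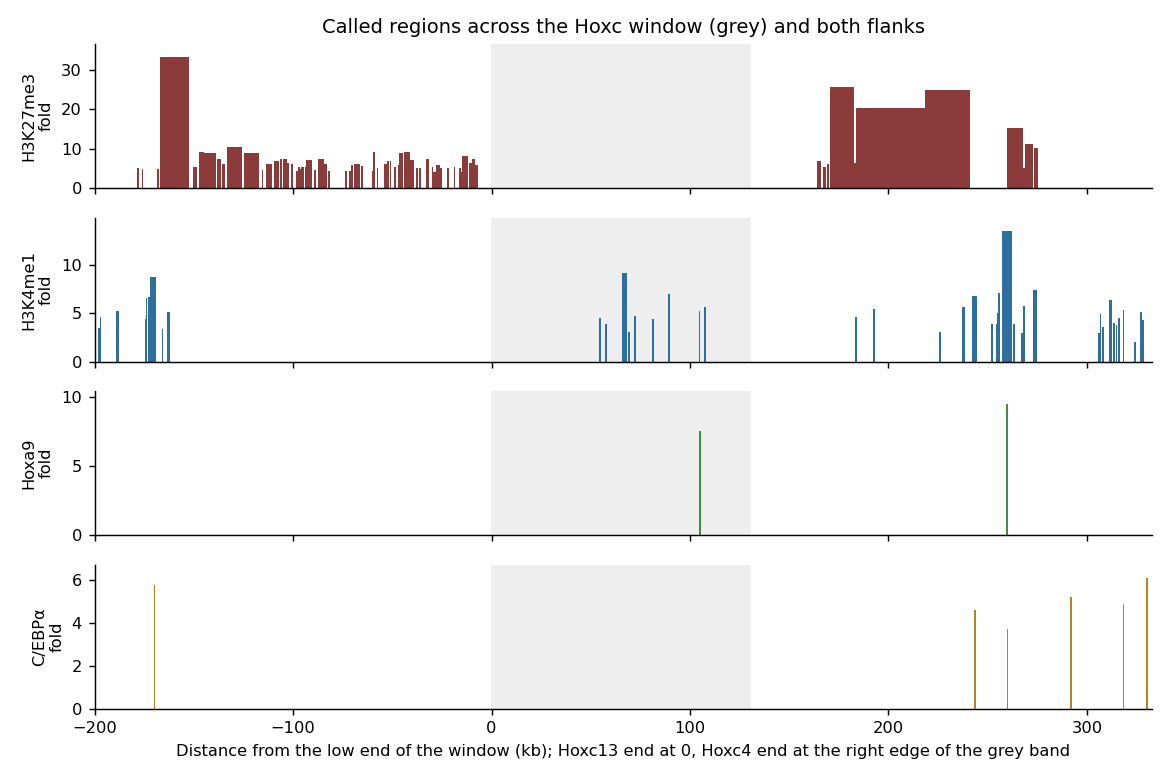
Called regions across the Hoxc window (grey band) and 200 kb on each side, with 1 row of bars for each list. The x axis is distance from the low end of the window in kb, and bar height is the deposited fold enrichment (a linear ratio); narrow regions are drawn wider than they are so that they can be seen. H3K27me3 bars stop 7.0 kb before the band and resume 33.9 kb after it, while 9 H3K4me1 bars and 1 Hoxa9 bar stand inside it.

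H3K27me3 covered 54.4% of the flank below the window and 44.9% of the flank above it, against 2.51% of the whole span. The flanks were marked in different ways. Below the window, on the side of Hoxc13 and Calcoco1, the mark was split into 61 regions. Their widths had a median of 1231 bp, and their median fold enrichment of 5.76 equalled that of the whole list. The widest of them, from 102573112 to 102587608, spanned 14.497 kb with a fold enrichment of 33.18 and 3297 tags. It was the only region of 10 kb or more in that flank, and 28 of the 61 were narrower than 1 kb. Above the window, on the side of Smug1, 11 regions made up the cover. Their widths had a median of 2086 bp and their fold enrichments one of 10.16.

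The wide regions of the upper flank lay side by side. Regions of 12.48 kb (from 102910318), 34.417 kb (from 102923762 to 102958178) and 22.72 kb (from 102958265) had fold enrichments of 25.56, 20.31 and 24.72 and together covered 34.8% of that flank. The 34.417 kb region, with 4789 tags, ranked 27 by width among the 33769 in the list. In blocks of 50 kb the cover below the window ran 34.4%, 81.7%, 49.2% and 52.5% towards the cluster. Above the window it ran 28.9%, 99.7%, 51.0% and 0% away from it. The highest fold enrichment in the 100 kb next to the Hoxc13 end was 9.18, and the 61 regions became 3 when joined across gaps of up to 5 kb. Marked chromatin of low enrichment thus came close to the Hoxc13 end. Beyond the Hoxc4 end the nearest regions, from 102903865, 102906919 and 102908924, were also low, with fold enrichments of 6.77, 5.36 and 6.09. The first region of higher enrichment there began at 102910318. The highest fold enrichment of both flanks, 33.18, was on the Hoxc13 side.

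Long gaps in the H3K27me3 list were seldom bordered this heavily. The list held 4347 gaps of 100 kb or more between neighbouring regions, of which 3061 were at least as long as the one over Hoxc. Cover was measured in the 200 kb beside each gap, on the side with less. It was 44.9% for the Hoxc gap, with a median of 1.72% and a 99th percentile of 19.2% over all gaps. The Hoxc gap ranked 2 by this measure, which was chosen after the gap had been seen and is a description of the list. With cover measured over 500 kb on each side, 8 gaps, the one over Hoxc included, were bordered at least as heavily.

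**Figure D2:**
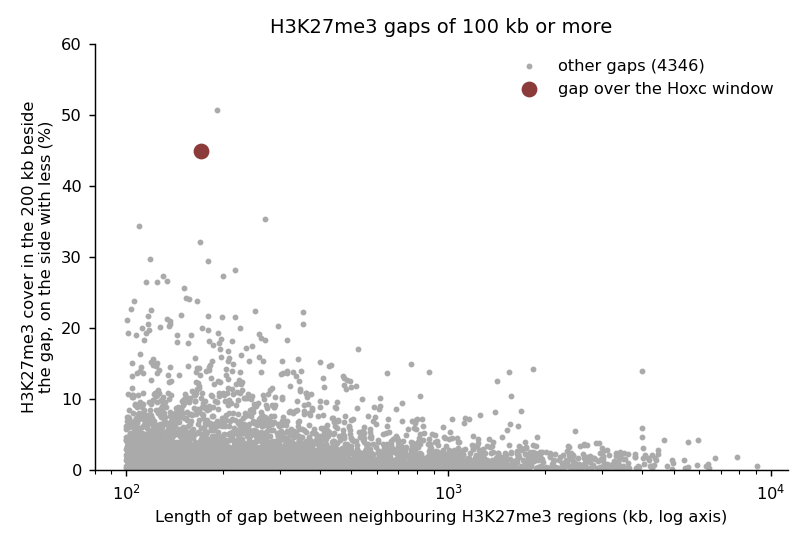
Each point is 1 of the 4347 gaps of 100 kb or more between neighbouring H3K27me3 regions. The x axis is gap length in kb on a log axis and the y axis is H3K27me3 cover, in percent, of the 200 kb beside the gap on the side with less; the Hoxc gap (large point, 170.86 kb and 44.9%) lies above all other points but 1.

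The other 3 Hox clusters were covered almost throughout. Windows set by hand around them, from general knowledge of their rounded mm9 positions, were 130 kb for Hoxa on chromosome 6, 200 kb for Hoxb on chromosome 11 and 130 kb for Hoxd on chromosome 2. H3K27me3 covered 88.0% of the Hoxa window in 13 regions, 83.5% of the Hoxb window in 30 and 91.0% of the Hoxd window in 7, against 0% of the Hoxc window. The widest region of Hoxa spanned 80.386 kb (from 52152460 to 52232845, fold enrichment 41.98, 21434 tags). That of Hoxb spanned 77.15 kb (from 96109310 to 96186459, fold enrichment 33.92, 17172 tags). That of Hoxd spanned 75.164 kb (from 74480198 to 74555361, fold enrichment 38.6, 18867 tags). By width these ranked 2, 3 and 4 of the list, and among the 4 clusters only Hoxc had no region in the list used here.

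**Figure D3:**
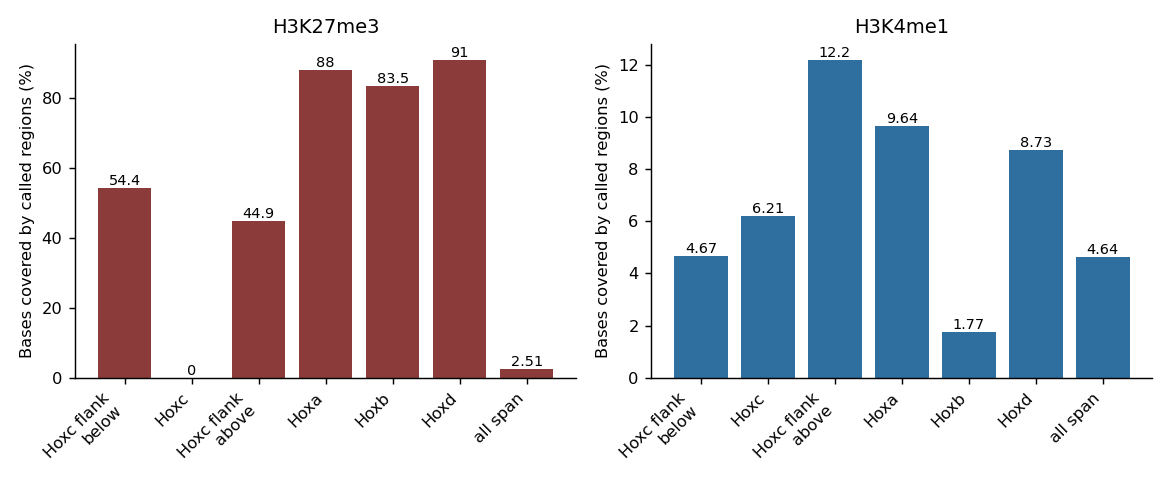
Percent of bases covered by called regions of H3K27me3 (left) and H3K4me1 (right) in the Hoxc window, its flanks, the 3 other Hox windows and the whole span of the lists; both y axes start at 0. H3K27me3 cover is 0% at Hoxc and 83.5% to 91.0% at the other clusters, while H3K4me1 cover at Hoxc (6.21%) lies between that of Hoxb (1.77%) and Hoxd (8.73%).

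A gap in the list does not show that the mark was absent, since no signal track was used here. The deposited scores of the widest regions are given beside it. A score is the −log10 of a region's p-value times 10, and the lowest in the list was 50.01. Of 141 regions from 20 kb to less than 75 kb, 12 scored under 3000 (8.51%). Of the 4 regions of 75 kb or more, 3 did, and these were the widest regions of the other Hox clusters: 921.73 in Hoxa, 642.53 in Hoxb and 2675.3 in Hoxd. Their tag counts, from 17172 to 21434, were above those of every other region of the list but 1. The level of 75 kb lies just under the width of the Hoxd region, and the next widest region of the list spanned 46.588 kb. Scores under 3000 were also found in narrower regions, at 536 of 2159 from 5 kb to less than 10 kb. The gap over Hoxc was 1.88 times as long as the widest region called anywhere, 90.836 kb. Whether the scoring of wide regions had a part in the gap over Hoxc was not tested.

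**Figure D4:**
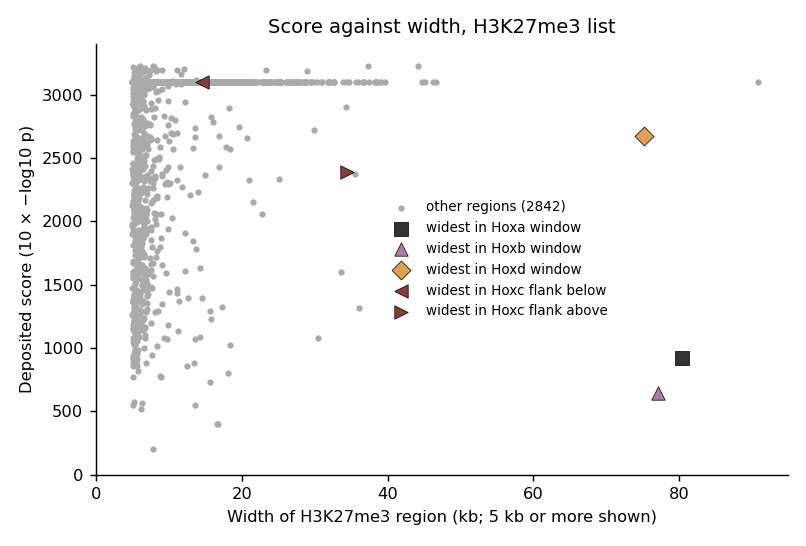
Deposited score (10 times −log10 p, y axis) against width in kb (x axis) for H3K27me3 regions of 5 kb or more, each point 1 region. Most points from 20 kb upwards sit at a score of exactly 3100. That value was shared by 121 of 136 regions from 20 kb to less than 40 kb and by 1559 of 2159 from 5 kb to less than 10 kb. It therefore does not grade these regions by strength. The widest regions of the Hoxa, Hoxb and Hoxd windows sit at 921.73, 642.53 and 2675.3.

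H3K4me1 was called inside the cluster, in 9 regions with 335 tags in all. Of windows of the same length, 23.6% held at least as many such regions, and the median window held 1. The regions covered 8.07 kb, or 6.21% of the window, against 4.64% of the whole span. They were not spread evenly. The first 54.2 kb at the Hoxc13 end and the last 21.8 kb at the Hoxc4 end held none, and all 9 lay in the 54.0 kb between, from 102794217 to 102848221. Beyond the window the nearest H3K4me1 regions were 216.1 kb below the first and 75.1 kb above the last of the 9. The group therefore stood alone on both sides.

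Of the 9, the strongest by every deposited value was the third from the Hoxc13 end. It ran from 102805867 to 102808061, 2195 bp with 101 tags, a score of 806.02 and a fold enrichment of 9.15, a fold that 5.56% of the list reached or passed. It held 30.1% of the tags in the 9 regions. The next in fold enrichment, at 7.02, ran from 102828849 to 102830077 with 49 tags over 1229 bp. At 5.64 followed the region nearest the Hoxc4 end, from 102847103 to 102848221, with 46 tags over 1119 bp. These 3 were the members of 1 kb or more.

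The other 6 were narrow. From 102844349 to 102845150 a region of 802 bp had 37 tags and a fold enrichment of 5.19, and it is the one that met the Hoxa9 peak. From 102812007 a region of 646 bp had 28 tags and a fold enrichment of 4.67, and from 102820894 one of 434 bp had 15 tags and 4.44. The 2 nearest to the Hoxc13 end, from 102794217 and 102797294, were both 409 bp wide with 14 tags each, the fewest in any region of the list, and fold enrichments of 4.5 and 3.86. The lowest fold enrichment, 3.0, belonged to the region from 102808863 to 102809689, with 31 tags over 827 bp, which lay 801 bp from the strongest one. Of the 9, 4 were above the list's median fold enrichment of 4.84 and 5 above its median width of 768 bp, so the group as a whole was ordinary in strength. Gaps between neighbours ran from 801 to 14271 bp with a median of 5094.5 bp.

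The Hoxc regions were close in strength to those of the other clusters. Their median fold enrichment was 4.67, against 4.74 over 14 regions in the Hoxa window, 4.41 over 7 in the Hoxb window and 5.04 over 14 in the Hoxd window. Lowest and highest values were 3.0 and 9.15 at Hoxc, 3.33 and 7.26 at Hoxa, 3.14 and 7.78 at Hoxb, and 3.14 and 7.58 at Hoxd, so the highest and the lowest fold enrichment both belonged to Hoxc. By score and tags the highest was a Hoxa region, at 1044.57 and 124 tags against 806.02 and 101 at Hoxc. At Hoxa, Hoxb and Hoxd all 14, 7 and 14 H3K4me1 regions touched an H3K27me3 region, as did 6.85% of the whole H3K4me1 list. H3K27me3 covered 83.5% to 91.0% of those windows. Contact there was thus to be foreseen for nearly any region and is no result about the H3K4me1 regions. At Hoxc the count of 0 of 9 is fixed by the gap in the H3K27me3 list and adds nothing to it. The windows of the 4 clusters were not of 1 length and each came from 1 library per mark, so no test was made of these differences.

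**Figure D5:**
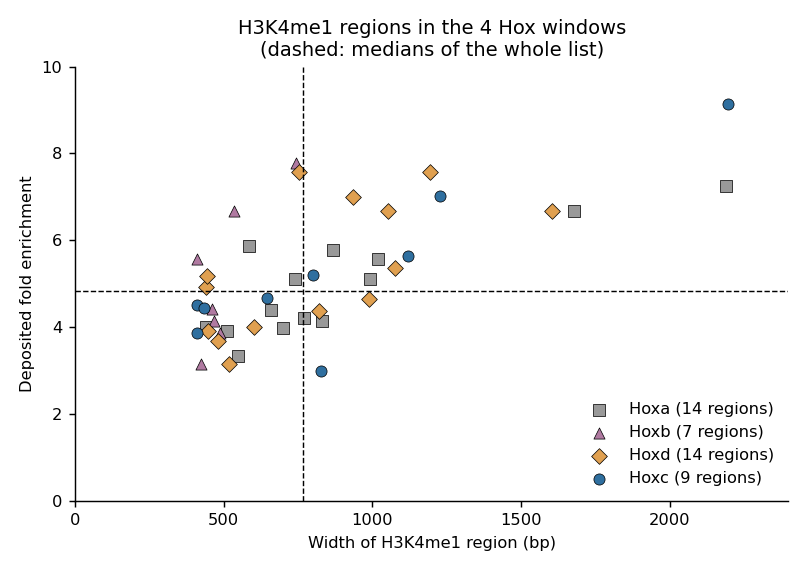
H3K4me1 regions in the windows of the 4 Hox clusters, 1 point each, by width in bp (x axis) and deposited fold enrichment (y axis); dashed lines are the medians of the whole list, 768 bp and 4.84. The highest point (2195 bp, 9.15) and the lowest (827 bp, 3.0) both belong to Hoxc.

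H3K4me1 was also sparse next to the cluster. The lower flank held 9 regions covering 4.67% of it, all in the outermost 50 kb, so that the 150 kb next to the Hoxc13 end held none. The widest of them, from 102568118 to 102570737, spanned 2620 bp with a fold enrichment of 8.73. The upper flank held 25 regions covering 12.2%, of which 22 touched its outer 100 kb. Of those 25, 9 touched H3K27me3, as did 2 of the 9 below and 6.85% of the whole H3K4me1 list. H3K27me3 covered 44.9% of the upper flank and 54.4% of the lower one. Contact was thus to be foreseen for many of these regions and is no result about them.

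Hoxa9 was called at 1 place in the cluster. The peak ran from 102844756 to 102845428, 673 bp with 33 tags, a score of 123.5 and a fold enrichment of 7.5, and its false discovery rate was given as 0%. Its summit lay 105.1 kb from the Hoxc13 end, at position 102845074, and so in the part of the cluster towards Hoxc4. Of all Hoxa9 peaks 32.0% had at least this fold enrichment, and of windows of the same length 21.3% held at least 1 Hoxa9 peak. The next Hoxa9 peaks were 396.1 kb below and 153.8 kb above.

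The peak met H3K4me1 and no other list. Contact with H3K4me1 was the common case, at 82.4% of all Hoxa9 peaks. A Hoxa9 peak without C/EBPα was not rare either, at 2836 of 6578. The shared stretch, with the H3K4me1 region from 102844349, was 395 bp or 58.7% of the peak's width. Its summit was inside that region, 76 bp from the region's end and 233 bp from the region's own summit, and the next H3K4me1 region began 1674 bp beyond the peak. The nearest H3K27me3 region was 58.4 kb away. The only factor peak in the Hoxb window was a Hoxa9 peak. It ran from 96180396 to 96181037 with 31 tags and a fold enrichment of 6.0, and it touched both histone marks. The Hoxa and Hoxd windows held 0 Hoxa9 peaks and 1 C/EBPα peak each, with fold enrichments of 8.02 and 6.49.

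C/EBPα, the leucine zipper factor of myeloid differentiation, had no called peak in the cluster. The nearest lay 137.8 kb above the Hoxa9 peak, from 102983235, and 274.4 kb below it. C/EBPα was at least this far away for 218 of the 6578 Hoxa9 peaks, or 3.31%. A window without C/EBPα was common, at 54.6% of all windows, but less so among those rich in H3K4me1. The cut used for this was the Hoxc window's own count of 9, so windows richer in H3K4me1 were included. Windows with at least 9 H3K4me1 regions numbered 4677 and held a median of 4 C/EBPα peaks. Of these, 189 held none, which is 4.04% of them and 0.955% of all windows. Windows with at least 9 H3K4me1 regions and no H3K27me3 region made up 10.3% of all. The other Hox clusters also held few C/EBPα peaks. There was 1 each in the Hoxa and Hoxd windows, with 14 H3K4me1 regions each, and 0 in the Hoxb window, with 7.

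Both factors met in the upper flank, at the edge of a marked region. A Hoxa9 peak from 102999216 to 102999939, with 46 tags and a fold enrichment of 9.44, overlapped a C/EBPα peak from 102999482 to 102999909 by 428 bp. The latter had 16 tags, where the fewest in any C/EBPα peak were 15, and a fold enrichment of 3.73. Of all C/EBPα peaks 96.4% had at least this fold enrichment. For the Hoxa9 peak the share of its own list was 19.6%. The summits were 224 bp apart. Both peaks lay in the widest H3K4me1 region of the flank, from 102996991 to 103002120, which spanned 5130 bp with 310 tags and a fold enrichment of 13.5. An H3K27me3 region of 7.905 kb began at 102999844, 283 bp beyond the Hoxa9 summit, and overlapped the Hoxa9 peak by 96 bp. The flank held 5 C/EBPα peaks, the highest scoring from 103069921 to 103070655 with a fold enrichment of 6.1. The lower flank held 1, from 102569778 with a fold enrichment of 5.76, and 0 Hoxa9 peaks.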

How the data were processed

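The authors deposited 1 list of called regions for each of 4 precipitations, in mm9. The submitters' processing notes name CASAVA 1.8.2, BWA 0.6.2 and MACS 1.4. The settings and the control of the caller, and the library totals, were not stated there. Each row gives, per the file headers, the position, width and summit. The deposited tag count is a whole number per region, not normalized. The deposited score is 10 times the −log10 of the p-value, the deposited fold enrichment is a linear ratio, and the deposited false discovery rate is in percent. Depth is therefore known only as tags per region. Values were used only within a list.

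Overlap meant at least 1 bp in common. Cover is the union of regions over the length of a window or flank. Python 3.11.15, pandas 2.3.3 and numpy 2.4.6 were used, and the interval code was checked on simulated intervals. All members, the widest region of each mark and the highest scoring peak of each factor in each flank, and the widest H3K27me3 region of each other cluster were to be named. The window and the comparisons were chosen with earlier results of these data known. Gene positions of build GRCm38 were not joined to the lists. Promoter content had been planned; of the members only Hoxc4 had an entry, and it is not reported. Protein identity had been planned and was not run. Alternatives are given in the closing section.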

Additional observations from a re-analysis of the deposited data

How the results depend on the processing

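Of 71 alternatives to 12 values, 45 were counted as leaving the value near the original and 26 as moving it. The 6 on gaps and on windows without H3K27me3 were chosen after seeing the data. Many of the 45 could not have come out otherwise. Stricter limits, joining or a shorter window applied to a count of 0 give 0 again. The tally is therefore no measure of how stable the results are. C/EBPα peaks in the window numbered 0 under each of its alternatives. Only lengthening the window by 10 kb at each end could have changed that count, since the others can only remove peaks. With the window lengthened by 10 kb at each end, 3 H3K27me3 regions touched it and covered 1.84%, and H3K4me1 cover went from 6.21% to 5.38%. With the window shortened by 10 kb it was 7.34%. At a fold enrichment of 5 or more, 4 H3K4me1 regions were left with 4.11% cover, H3K27me3 covered 47.5% and H3K4me1 5.98% of the flanks, and 65.1% of windows were free of H3K27me3. With the minimum raised to 10, 0 H3K4me1 regions and 0 Hoxa9 peaks were left in the window (H3K4me1 cover 0%), the flank covers were 26.4% and 1.28%, and 81.1% of windows had no H3K27me3. At a score of 100 or more, H3K4me1 covered 5.58% of the window, and the flank covers were 45.6% and 6.82%. At a false discovery rate of 1% or less H3K27me3 covered 46.7% of the flanks. Joined across gaps of up to 5 kb, the 9 H3K4me1 regions became 5. The flanks together had 49.7% H3K27me3 and 8.43% H3K4me1 cover; with flanks of 100 kb these were 57.6% and 0.727%, and with flanks of 1 Mb 17.2% and 11.7%. Without chromosome X, 64.7% of windows had no H3K27me3. Gaps bordered at least as heavily as the one over Hoxc, itself included, numbered 2, and 8 with cover measured over 500 kb on each side. All windows (100%) had at least the 0% cover of Hoxc, a planned value that carries no information. No paired analysis was possible because each group has 1 library. Depth limits what a list can hold: 2 members had 14 tags, the fewest in any H3K4me1 call.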

Other observations

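The 1 gap in the H3K27me3 list with more heavily marked borders than the gap over Hoxc lay on chromosome 1, between a region that ended at 75066189 and one that began at 75257744. It was 191.554 kb long, with H3K27me3 cover of 53.1% in the 200 kb below it and 50.6% in the 200 kb above it. It was named after its values were seen.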
